A study of Mus musculus with 36 samples.

Results

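The comparison described here set primary mouse prostate organoids carrying the FOXA1 variant R219S directly against organoids carrying the FOXA1 variant FE255del, both collected at day 11. The libraries were chosen by their labels alone, 3 of R219S and 3 of FE255del, which are 6 of the 36 libraries of the study. Organoids are three-dimensional cultures grown from dissociated epithelial cells. The study also held an empty vector (EV) and wild-type FOXA1 (WT), and each construct was sampled at days 0, 1 and 11 in 3 replicates. Each group carried its construct in a pCW vector, an inducible lentiviral backbone, and 500 ng/mL doxycycline was given to induce FOXA1 joined by a 2A sequence to the red fluorescent protein DsRED. Cells positive for DsRED were sorted, 3 cultures per construct were seeded from them, and the cultures were then handled apart. The p-values thus measure how much such sister cultures varied, and they do not cover a repeat of the infection. Mouse strain and age and the species of the inserted cDNA are not given in the sources used here. The labels state the doxycycline treatment for every sample, day 0 included, whereas the names of the deposited tables mark those of day 0 as without doxycycline, so what day 0 stands for is uncertain. The labels name no deletion of the cells' own Foxa1.

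FOXA1 belongs to the forkhead family of transcription factors and acts in the epithelia of prostate, breast and several endoderm-derived organs. It is called a pioneer factor because it can bind its sites in closed chromatin and help other factors, among them steroid hormone receptors, to bind nearby. Its forkhead domain contacts DNA through a recognition helix and through loops called wings, and mutations in prostate cancer gather in and around that domain. The comparison asks how organoids expressing 2 altered forms of the same factor differed from each other.

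The 6 libraries held 71341165 to 77250626 counts, and the 36 libraries 61476938 to 102385337. Of 45232 genes, 18176 had enough counts to be tested. Between 20358 and 21052 genes had a count in each of the 6 libraries, and mitochondrial genes took 2.35% to 4.37%. R219S replicate 2 stood apart from its group: it had the 4.37% of mitochondrial counts, and its counts differed from those of the other R219S libraries by a chi-square per degree of freedom of 24.4 and 31.4, against 9.88 to 18.5 for the other pairs. It also had the highest level of several interferon genes, given below. The epithelial markers Epcam, Cdh1, Krt5, Krt8 and Krt18 were each at 175.5 CPM or more in all 6 libraries. The prostate secretory gene Pbsn had 0 counts in all 36 libraries and the neuroendocrine marker Chga had 34, so neither could be tested. Levels are CPM, the counts scaled to a common library size, differences are log2 fold changes of R219S over FE255del ± SE with n = 3 libraries a group, and every adjusted p comes from edgeR's quasi-likelihood F test with Benjamini-Hochberg adjustment over all tested genes. A gene is called higher, lower or changed only where that adjusted p was under 0.05.

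Foxa1 itself, which encodes the induced factor, was at 262.5, 242.4 and 300.6 CPM in R219S and at 302.5, 316.1 and 266.4 CPM in FE255del. The libraries overlapped. The difference was -0.14 ± 0.06 (adjusted p = 0.0582) and did not pass, although it passed with RLE scaling (adjusted p = 0.0424), with total-count scaling, without or with a stricter filter on low counts, with DESeq2, and without FE255del replicate 3 or R219S replicate 3. In the EV libraries of day 11 Foxa1 was already at 216.8, 232.9 and 240.8 CPM. R219S lay 0.22 above EV (adjusted p = 0.00361) and FE255del 0.36 above it (adjusted p = 6.73e-06). Some of the Foxa1 reads in the variants may come from the inserted cDNA, and the protein was not measured. Of the related factors, Foxa2, a regulator of gut and liver endoderm, had 65 counts over the 3 R219S libraries and 0 over the 3 FE255del libraries (adjusted p = 2.55e-06). At 0.295, 0.303 and 0.304 CPM, Foxa2 stayed at a trace level in R219S, at least 22.4-fold above FE255del when FE255del is set to 3 counts over its libraries. Foxa3 had 115 counts in all 36 libraries and was not tested.

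The variants differed in 8940 of the 18176 tested genes (49.2%). Of these, 4443 were higher in R219S (24.4%) and 4497 lower (24.7%). Changes of at least 2-fold were seen for 1287 higher genes (7.08%) and 1242 lower genes (6.83%). Over all tested genes, called or not, the median was -0.01 and the median absolute difference 0.30. Of the 8940 called genes, 2529 differed by at least 2-fold, so most called differences were smaller than 2-fold. With a test against a 1.5-fold change instead of no change, 2601 genes passed. Total-count scaling moved the split to 3733 higher and 5768 lower and shifted the median of all genes by -0.07. For 9134 genes (50.3%) the 3 libraries of one variant all lay above the 3 of the other.

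**Figure D1:**
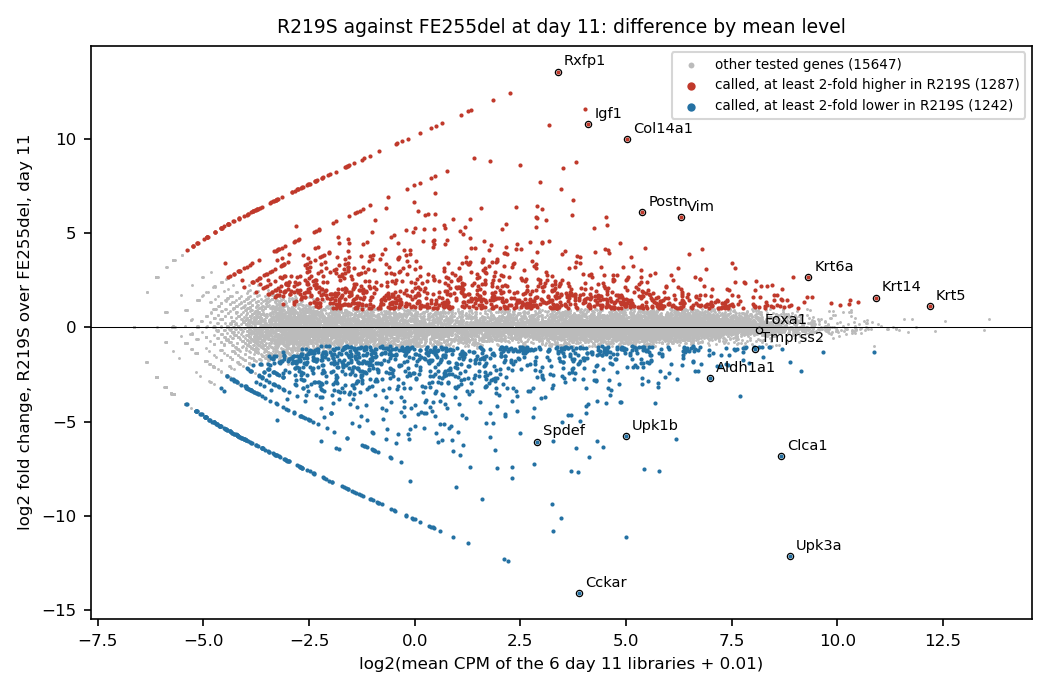
Each point is 1 of the 18176 tested genes, with the log2 of its mean CPM over the 6 libraries plus 0.01 on the x axis and the log2 fold change of R219S over FE255del on the y axis. Red and blue points are the 1287 and 1242 genes that passed the test and were at least 2-fold higher or lower in R219S, grey points are all others, and diagonal rows of points at low level are genes with 0 counts in 1 variant.

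The genes with the largest differences upward were nearly silent in FE255del. Igf1, the insulin-like growth factor (chromosome 10, 87858265 to 87937042, mm10), was at 26.7, 33.8 and 42.6 CPM in R219S and at 0, 0 and 0.0558 CPM in FE255del. Its FE255del total was 4 counts, and EV had none. All R219S libraries lay far above all others (10.78 ± 0.38, adjusted p = 9.47e-14). Col14a1, a fibril-associated collagen (chromosome 15), was at 59.1, 59.5 and 75.9 CPM against 0.0766, 0.0539 and 0.0558 CPM (9.98 ± 0.24, adjusted p = 9.02e-25). The highest EV or WT library of day 11 had 0.211 CPM of Col14a1. Adcy8, an adenylyl cyclase, was at 28.3, 27.3 and 28.8 CPM against 0.0255, 0.108 and 0.0558 CPM, a difference of 8.77 ± 0.36 (adjusted p = 5.59e-20).

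Several of these genes had no count at all in the 3 FE255del libraries, so their fold is a lower bound with FE255del set to 3 counts. Rxfp1, the relaxin receptor, was at 20.3, 12.9 and 29.1 CPM in R219S, at least 1560-fold higher. The inner-ear collagen-like gene Otol1 was at 9.17, 9.5 and 10.1 CPM, at least 716-fold higher (adjusted p = 4.37e-12). For the neuronal adhesion gene Astn1 the bound was 541-fold, for the transmembrane gene Tmem35a 371-fold, for the immunoglobulin kappa constant region Igkc 359-fold and for the matricellular gene Sparcl1 314-fold. Rxfp1, Otol1, Tmem35a, Igkc and Sparcl1 were at 0 in every EV and WT library of day 11 too. With DESeq2 the calls of Rxfp1 (adjusted p = 0.122) and Igkc (adjusted p = 0.207) were lost. Tmem45a2 had 2 counts in FE255del and a ratio of counts of 2030 (95% exact interval 561 to 16800). Olfr558, an olfactory receptor gene, had 2 counts and a ratio of 594 (164 to 4910). Dhrs2, a short-chain dehydrogenase, had 3 counts and a ratio of 514 (176 to 2500), and its call was lost with DESeq2 (adjusted p = 0.0568). These intervals hold counting error alone, and even that is understated, since both reads of a pair appear to be counted.

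The genes with the largest differences downward were expressed in FE255del and near silent in R219S. Upk3a, a uroplakin of the bladder surface (chromosome 15), was at 865, 1020 and 917.6 CPM in FE255del and at 0.0803, 0.533 and 0.0276 CPM in R219S. The gap between the groups spanned more than 3 orders of magnitude (-12.12 ± 0.27, adjusted p = 5.6e-23). Cckar, the cholecystokinin receptor (chromosome 5), had 6653 counts over FE255del and 0 over R219S, at least 2140-fold lower in R219S (adjusted p = 4.05e-13). Sytl2, a synaptotagmin-like protein of vesicle transport, was at 58.9, 73.7 and 59 CPM in FE255del against 0.0268, 0 and 0.0552 CPM (-11.08 ± 0.30, adjusted p = 5.13e-25). Adcyap1r1, the receptor of the neuropeptide PACAP, had 2 counts in R219S, and FE255del exceeded it by a ratio of 2100 (580 to 17300). Cxxc4, a zinc finger inhibitor of Wnt signalling, was at least 662-fold lower in R219S, the junction gene Vsig1 at least 617-fold and the potassium channel subunit Kcne2 at least 346-fold. Cd22, a B-cell lectin, had 2 counts in R219S and a ratio of 646 (178 to 5340). Further genes of this kind were Dcdc2a, a doublecortin-domain gene of cilia (-10.10 ± 0.41), the trefoil factor Tff2 (-9.34 ± 0.59), the endopeptidase Mme (-7.98 ± 0.50) and the imprinted non-coding RNA H19 (-7.69 ± 0.45).

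**Figure D2:**
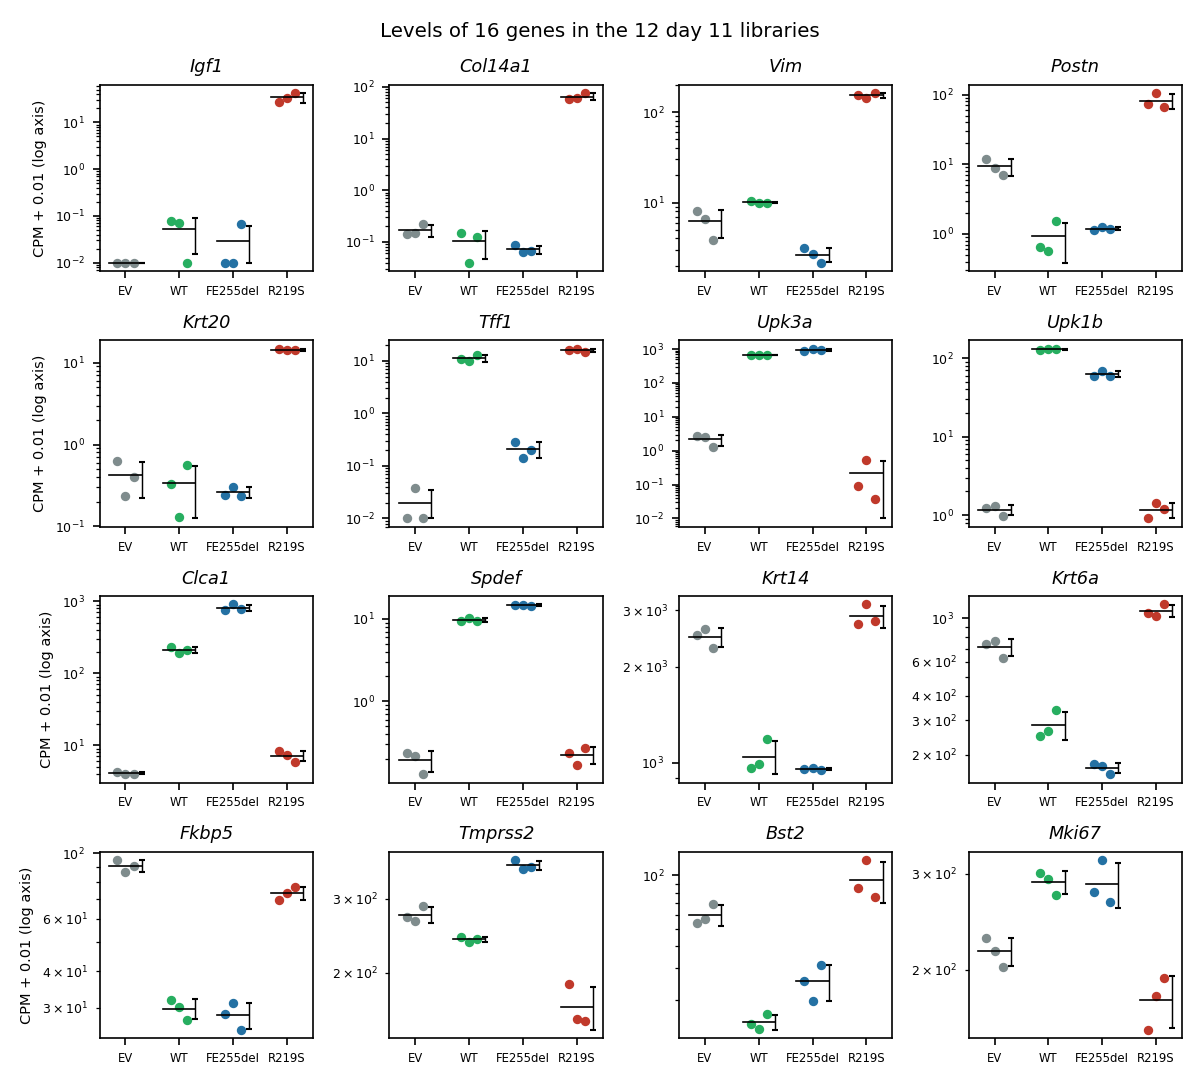
Each panel shows 1 gene in the 12 day 11 libraries, as CPM plus 0.01 on a log axis, with points for single libraries of EV, WT, FE255del and R219S, a line at the mean and a bar of 1 SD beside it. Igf1, Col14a1, Vim, Postn and Krt20 stood high in the 3 R219S libraries alone, and Upk3a, Upk1b, Clca1 and Spdef stood high in FE255del and WT.

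Because the constructs encode a forkhead factor, the 250 bases before each start site in RefSeq (GRCm38.p6) were searched on both strands for the forkhead motifs TGTTTAC and TATTTAC. Of all 32851 promoters in the table, 5.76% held a match, and of the 11958 tested genes with an entry 4.78% did. The share was 5.9% of 882 genes at least 2-fold higher in R219S and 8% of 812 genes at least 2-fold lower. None of the 6 and 8 promoters found among the 12 largest differences in each direction held one. A match is a description of letters and not a site, and no binding was measured here. To show where the letters lie, the promoters of the 2 genes with the largest difference in each direction among those holding a match are printed (mean of at least 2 CPM, libraries not overlapping), with the motif or its reverse complement in capitals. Atp13a5, a transport ATPase of the P5 family, differed by 6.77 and Hrnr, a cornified envelope protein, by 4.73, while Acsm3, an acyl-CoA synthetase, differed by -7.62 and Vnn3, a vanin, by -7.51.
Atp13a5, chr16:29378733-29378982, minus strand: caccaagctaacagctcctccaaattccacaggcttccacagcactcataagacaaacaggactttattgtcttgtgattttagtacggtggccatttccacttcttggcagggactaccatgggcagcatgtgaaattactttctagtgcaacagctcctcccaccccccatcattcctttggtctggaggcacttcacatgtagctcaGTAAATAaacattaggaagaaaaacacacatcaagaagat
Hrnr, chr3:93319499-93319748, plus strand: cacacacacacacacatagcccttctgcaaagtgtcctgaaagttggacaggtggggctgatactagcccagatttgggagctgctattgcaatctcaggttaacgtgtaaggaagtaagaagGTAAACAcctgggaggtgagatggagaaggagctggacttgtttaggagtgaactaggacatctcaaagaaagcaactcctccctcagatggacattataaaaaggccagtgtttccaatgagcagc
Acsm3, chr7:119760673-119760922, plus strand: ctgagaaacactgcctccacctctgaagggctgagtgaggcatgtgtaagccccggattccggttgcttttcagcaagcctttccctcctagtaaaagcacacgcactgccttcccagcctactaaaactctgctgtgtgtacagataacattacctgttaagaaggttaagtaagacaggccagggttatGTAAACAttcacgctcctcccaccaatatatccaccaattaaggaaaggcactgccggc
Vnn3, chr10:23851212-23851461, plus strand: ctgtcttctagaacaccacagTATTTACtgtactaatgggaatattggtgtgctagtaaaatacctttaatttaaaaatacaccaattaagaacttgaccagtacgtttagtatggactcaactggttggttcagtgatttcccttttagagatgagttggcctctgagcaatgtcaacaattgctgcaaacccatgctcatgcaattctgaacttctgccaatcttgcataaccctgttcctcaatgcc

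Basal and squamous genes were higher in R219S. Basal cells line the prostate ducts and carry p63 and the keratins 5 and 14, while squamous genes build the cornified layers of skin. Of 24 tested basal epithelium genes, 21 were higher and 3 lower, with a median of 0.90 beside -0.01 over all genes. Krt14 was at 2709, 3126 and 2775 CPM in R219S and at 957.9, 966.4 and 952.5 CPM in FE255del (1.58 ± 0.07, adjusted p = 7.17e-20). Krt5 was at 6121, 6656 and 6325 CPM against 2890, 2953 and 2848 CPM (1.14 ± 0.06, adjusted p = 1.41e-18). Each R219S library was above each FE255del library for both keratins. Trp63, which encodes p63, differed by 0.60 ± 0.07 (adjusted p = 1.51e-09), the hemidesmosome collagen Col17a1 by 1.47 ± 0.08 and the caveolar protein Cav1 by 1.35 ± 0.07. Against the rest of the list, Krt15 (-0.59 ± 0.08), a keratin of basal cells, the nerve growth factor receptor Ngfr (-0.91 ± 0.09) and the Notch ligand homologue Dlk2 (-0.65 ± 0.15) were lower in R219S.

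Of 30 tested squamous genes, 22 were higher in R219S and 2 lower, with a median of 1.08. Krt6a, a keratin of activated epidermis, was at 1067, 1027 and 1178 CPM in R219S and at 178.7, 175 and 158.8 CPM in FE255del (2.67 ± 0.08, adjusted p = 9.89e-23). The desmosomal cadherins Dsg3 (2.33 ± 0.12) and Dsg4 (4.48 ± 0.23) were higher, as was the protease Klk8 (2.91 ± 0.20). Krt23 (-1.87 ± 0.11) and Krt78 (-0.87 ± 0.16) were lower. Of 17 tested serpins, inhibitors of proteases, 14 were higher and 0 lower (median 1.23), among them Serpinb5 at 258.3, 307.5 and 265.8 CPM against 80.9, 88.6 and 84.4 CPM (1.71 ± 0.07, adjusted p = 1.14e-19). Serpinb1a differed by 2.32 ± 0.10 and Serpinb9, an inhibitor of granzyme B, by 1.31 ± 0.07.

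**Figure D3:**
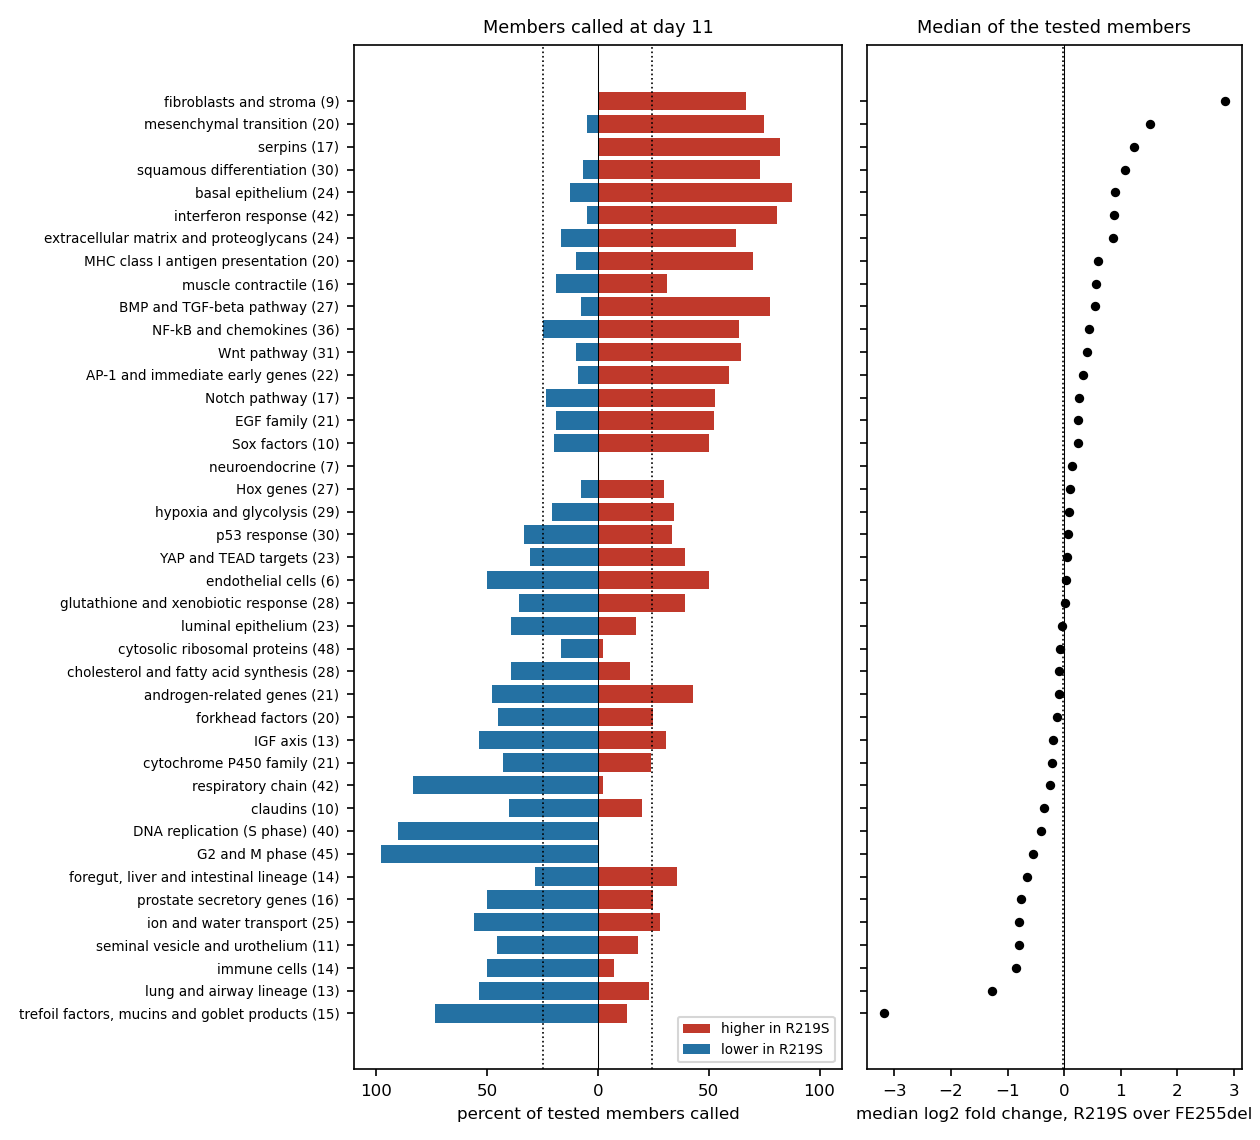
On the left, bars give the percent of each list's tested members (number in brackets) that were higher (red) or lower (blue) in R219S at day 11, and dotted lines mark the 24.4% and 24.7% of all tested genes. On the right, points give the median log2 fold change of the list, with the median of all genes dotted, from 2.85 for the 9 fibroblast and stroma genes (0.04 over 16 without a filter on low counts) to -3.19 for trefoil, mucin and goblet genes.

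Luminal genes, which mark the secretory cells of the gland, did not move as a block: 4 of 23 were higher in R219S and 9 lower, with a median of -0.03. The 56.5% called were near the 49.2% of all tested genes. The luminal keratins Krt8 (-0.45 ± 0.07, adjusted p = 1.48e-06) and Krt18 (-0.24 ± 0.04, adjusted p = 1.3e-05) were lower. Krt8 was at 176.3, 175.5 and 184.1 CPM in R219S and at 209.3, 277.8 and 246.6 CPM in FE255del, with no overlap. Krt4, a keratin of luminal progenitors, showed a larger gap, at 200.3, 159.3 and 206.9 CPM against 929, 903 and 955.2 CPM (-2.30 ± 0.08). The stem and progenitor marker Prom1 (-1.96 ± 0.12) and the epithelial factor Elf3 (-0.64 ± 0.06) were also lower. On the other side stood Epcam, an epithelial adhesion protein (0.80 ± 0.06), Cd24a (0.50 ± 0.05) and the peptidase Dpp4 (3.37 ± 0.25). E-cadherin, Cdh1, was at 1371, 1398 and 1302 CPM against 1327, 1489 and 1340 CPM and did not pass (-0.03 ± 0.04, adjusted p = 0.595).

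Among 21 tested androgen-related genes, 9 were higher and 10 lower (median -0.09). Fkbp5, a steroid receptor cochaperone, was at 69.5, 73.3 and 77 CPM in R219S against 28.6, 31.1 and 25.3 CPM in FE255del (1.37 ± 0.06, adjusted p = 2.55e-20). Tmprss2, an androgen-regulated serine protease, went the other way, at 187.8, 155 and 153.9 CPM against 370.5, 352.6 and 357.2 CPM (-1.12 ± 0.05, adjusted p = 2.22e-19). Pmepa1, an inhibitor of TGF-beta signalling (1.98 ± 0.12), Acpp, the prostatic acid phosphatase (1.21 ± 0.08) and the glucocorticoid-induced Tsc22d3 (0.98 ± 0.06) were higher. The scaffold gene Homer2 (-1.96 ± 0.08) and the prostate transporter Slc45a3 (-0.55 ± 0.05) were lower. Hoxb13, a homeobox factor of the prostate, differed by 0.01 (adjusted p = 0.881).

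Prostate secretory genes were low in both variants but higher in FE255del in 8 of 16 tested genes and higher in R219S in 4 (median -0.76). Sbp, the spermine-binding protein, was at 4.39, 6.43 and 7.12 CPM in R219S and at 19.3, 23.4 and 19.7 CPM in FE255del (-1.80 ± 0.15, adjusted p = 3.15e-10), while every EV library of day 11 had 0. Its neighbour Sbpl differed by -1.82 ± 0.17. Sbp and Sbpl are close copies of each other, so reads may be split between them. Ceacam10, a secreted member of its adhesion family (-2.43 ± 0.10), and the metalloprotease Mmp7 (-1.84 ± 0.10) were lower in R219S, and the calcium channel Trpv6 (0.78 ± 0.25) was higher, a call lost when only the compared groups were fitted (adjusted p = 0.0576), without FE255del replicate 1 (0.0746) and without FE255del replicate 2 (0.0588). Scgb1a1, a secretoglobin, was at 0.428, 0.577 and 0.525 CPM against 1.07, 0.647 and 1.17 CPM and missed the threshold (-0.92 ± 0.39, adjusted p = 0.0502). Scgb1a1 passed in 6 other settings, with adjusted p from 0.0026 with DESeq2 to 0.0359 with a stricter filter.

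Genes of mucus-producing goblet cells formed one of the widest gaps. Of 15 tested trefoil factors, mucins and goblet products, 11 were lower in R219S and 2 higher, with a median of -3.19, or -2.25 with genes silent in 1 variant set to their bound. Clca1, a secreted goblet cell protein, was at 8.26, 7.43 and 5.85 CPM in R219S and at 752.6, 901.7 and 769.4 CPM in FE255del (-6.81 ± 0.10, adjusted p = 2.35e-30). Spdef, a factor of goblet cell and luminal differentiation, was at 0.228, 0.159 and 0.262 CPM against 14.8, 14.6 and 14.1 CPM (-6.05 ± 0.23, adjusted p = 1.1e-21). The R219S libraries overlapped EV for Spdef, which had 0.226, 0.209 and 0.121 CPM. The mucin Muc20 was lower as well (-3.18 ± 0.23). The trefoil factors split, since Tff2 was lower in R219S and Tff1 was higher, at 15.9, 17.1 and 14.7 CPM against 0.281, 0.135 and 0.195 CPM (6.27 ± 0.34, adjusted p = 5.96e-16). Galnt12, a mucin glycosyltransferase, was higher by 0.39 ± 0.11, a call lost when only the compared groups were fitted (adjusted p = 0.069).

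Genes of other endodermal and urinary epithelia differed in both directions. Of 11 tested seminal vesicle and urothelium genes, 5 were lower in R219S and 2 higher (median -0.80). Upk1b, a uroplakin, was at 0.897, 1.4 and 1.19 CPM in R219S and at 58.8, 69 and 60.2 CPM in FE255del (-5.76 ± 0.12, adjusted p = 3.06e-27), and Upk1a (-1.78 ± 0.20) and Upk2 (-1.67 ± 0.29) were lower too. Krt20, a keratin of intestine and superficial urothelium, was higher, at 14.8, 14.2 and 14.2 CPM against 0.23, 0.296 and 0.223 CPM (5.84 ± 0.44, adjusted p = 5.28e-12). Of 13 tested lung and airway genes, 7 were lower and 3 higher (median -1.28). Foxj1, the factor of ciliated cells (-3.89 ± 0.14), the club cell cytochrome Cyp2f2 (-5.90 ± 0.20) and the antimicrobial lectin Reg3g (-4.95 ± 0.19) were lower, and lactoferrin, Ltf (1.73 ± 0.09), and the surfactant protein Sftpd (0.97 ± 0.12) were higher. Of 14 foregut, liver and intestinal genes, 5 were higher and 4 lower (median -0.66, or -0.14 with silent genes at their bound). The intestinal homeobox factor Cdx2 was at 0.75, 0.375 and 0.386 CPM against 13.1, 13.7 and 13.6 CPM (-4.73 ± 0.15, adjusted p = 1.25e-23). Hnf4a, a nuclear receptor of liver and gut, was lower (-6.25 ± 0.45), and Cdh17, the intestinal cadherin, was higher (3.26 ± 0.26).

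Mesenchymal and matrix genes were higher in R219S. Of 20 tested genes of the mesenchymal list, 15 were higher and 1 lower, with a median of 1.52. Vim, the intermediate filament vimentin, was at 153, 145.2 and 163 CPM in R219S and at 3.11, 2.67 and 2.15 CPM in FE255del (5.86 ± 0.17, adjusted p = 2.92e-21). Postn, the matrix protein periostin, was at 74.2, 105.4 and 66.3 CPM against 1.14, 1.24 and 1.17 CPM (6.11 ± 0.25, adjusted p = 4.25e-18). For both genes the R219S libraries lay above every EV and WT library of that day. Sparc, a secreted matrix glycoprotein, differed by 2.01 ± 0.16, the repressor Snai2 by 0.57 ± 0.05, fibronectin, Fn1, by 1.89 and the repressor Zeb2 by 3.67. Zeb1, its relative, was lower (-2.73 ± 0.47), at a low level that reached 1.21 CPM in the highest FE255del library. Of 24 tested extracellular matrix and proteoglycan genes, 15 were higher and 4 lower (median 0.87), with Thbs2, a thrombospondin, at 153.6, 170.8 and 176.4 CPM against 12.1, 9.11 and 12.7 CPM (3.89 ± 0.22, adjusted p = 3.44e-14). The basement membrane collagen Col4a2 (1.12 ± 0.06) and matrilin Matn2 (1.70 ± 0.08) were higher, and Col8a1 (-0.86 ± 0.12), Thbs1 (-0.35 ± 0.06) and elastin, Eln (-1.44 ± 0.30), were lower.

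Among markers of fibroblasts and stroma, 6 of 9 tested were higher in R219S and 0 lower (median 2.85). This list shares members with the genes above, Postn among them, so its counts are not separate from theirs. Without a filter on low counts 6 of 16 were higher and the median was 0.04. The summed level of the 17 listed genes was 110 to 156 CPM in R219S and 8.03 to 8.26 CPM in FE255del. The largest parts of that sum were Postn and Dcn, the proteoglycan decorin, which was at 30.4, 44.7 and 41.5 CPM against 5.56, 6.09 and 5.41 CPM (2.77 ± 0.23). The defining marker Thy1 had 0 counts in all 6 libraries, and the platelet-derived growth factor receptor genes Pdgfra (0.11 to 0.361 CPM in R219S, 0.418 to 0.488 CPM in FE255del) and Pdgfrb (at most 0.0276 and 0.112 CPM) were near 0. Col1a1 lay at 1.28 to 1.5 CPM in R219S, and Col3a1 at 0.11 to 0.461 CPM. The call of Lum, a proteoglycan seen in R219S only at 0.428 to 1.07 CPM, was lost with DESeq2 (adjusted p = 0.373). In such bulk libraries a larger share of cells of one type cannot be told apart from more RNA per cell.

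Of the IGF axis, the ligand Igf1 is described above. The tested binding proteins split, with Igfbp3 (3.44 ± 0.22) and Igfbp7 (2.08 ± 0.11) higher in R219S and Igfbp5 lower, at 3.88, 6.06 and 8.25 CPM against 95.2, 116.3 and 79 CPM (-4.00 ± 0.29, adjusted p = 5.65e-12). Stc2, a stanniocalcin that restrains IGF release, was lower (-2.13 ± 0.10), as were the adaptor Irs1 (-0.49, adjusted p = 1.38e-06) and the clearance receptor Igf2r (-0.37, adjusted p = 0.000545). The receptor gene Igf1r differed by -0.04 (adjusted p = 0.859). In all, 4 of the 13 tested genes were higher and 7 lower, with a median of -0.20.

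Genes induced by interferons, which cells switch on in antiviral defence, were higher in R219S. Of 42 tested, 34 were higher and 2 lower, with a median of 0.88. Bst2, a surface protein that tethers virions, was at 85.3, 121.6 and 75.2 CPM in R219S and at 25.5, 19.8 and 31.4 CPM in FE255del (1.88 ± 0.14, adjusted p = 1.22e-11). Isg15, a ubiquitin-like modifier, was at 39.9, 73.4 and 43.1 CPM against 16.8, 7.18 and 15 CPM (2.00 ± 0.25, adjusted p = 1.15e-07). R219S replicate 2 was the highest library for both genes, and without it 29 of the 42 remained higher and 2 lower, with a median of 0.74. The guanylate-binding proteins Gbp2 (1.72 ± 0.12) and Gbp7 (1.63 ± 0.15) and the RNA sensor Ddx58 (0.65 ± 0.05) were higher. Ifit2, an antiviral RNA-binding protein, was lower, at 22.5, 29.1 and 26 CPM against 68.6, 68.6 and 73.4 CPM (-1.44 ± 0.07), as was the factor Irf1 (-0.24 ± 0.04).

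Of 20 tested genes of MHC class I antigen presentation, 14 were higher in R219S and 2 lower (median 0.60). B2m, the invariant light chain, was at 425.7, 587.7 and 343 CPM against 170.5, 162.7 and 206.4 CPM (1.33 ± 0.12, adjusted p = 1.86e-10). The transactivator Nlrc5 differed by 2.20 ± 0.19, the heavy chain H2-D1 by 0.88 ± 0.08 and the loading factor Tapbp by 0.53 ± 0.05. Class I genes share long stretches, so reads of H2-D1 may be split with its relatives. Without R219S replicate 2, 14 were higher and 3 lower, with a median of 0.45. Of 36 tested NF-kB and chemokine genes, 23 were higher and 9 lower (median 0.45). The feedback inhibitor Tnfaip3 (1.13 ± 0.06), the growth factor Csf1 (1.06 ± 0.06) and the alarmin Il33 (0.95 ± 0.06) were higher, whereas the chemokine Cxcl15 (-2.29 ± 0.20), the growth factor Csf3 (-1.20 ± 0.12) and the subunit gene Rela (-0.24 ± 0.04) were lower.

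Cell cycle genes were lower in R219S almost without exception. Of 45 tested genes of the G2 and M phases, 44 were lower and 0 higher, with a median of -0.54, and of 40 DNA replication genes 36 were lower and 0 higher, with a median of -0.40. Mki67, a marker of dividing cells, was at 155.1, 179.1 and 193 CPM in R219S and at 277.2, 317.6 and 265.8 CPM in FE255del (-0.71 ± 0.08, adjusted p = 1.45e-08). The mitotic kinases Plk1 (-0.72 ± 0.07), Nek2 (-0.82 ± 0.07) and Ttk (-0.81 ± 0.07) were lower, as were the replication genes Mcm6 (-0.68 ± 0.05), Mcm10 (-0.83 ± 0.06) and Cdc6 (-0.89 ± 0.08). Mcm6, a subunit of the replicative helicase, was at 222.9, 230 and 247.3 CPM against 364.7, 385.3 and 371.7 CPM. The 2 groups did not overlap for Mki67 or Mcm6. Over 13 other settings, among them leaving out each of the 6 libraries, 42 to 44 of the G2 and M genes and 32 to 38 of the replication genes were lower and 0 higher. The test against a 1.5-fold change was not among these settings. In that test the calls of Mki67 (glmTreat, adjusted p = 0.135) and of the listed genes Mad2l1 and Mcm3 were lost, and those of Plk1 and Mcm6 were kept.

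Of 42 nuclear respiratory chain genes, 35 were lower in R219S and 1 higher (median -0.24). Atp5a1, a subunit of ATP synthase, was at 985.5, 1046 and 1062 CPM against 1255, 1420 and 1333 CPM (-0.37 ± 0.05, adjusted p = 4.71e-08). Cyc1 (-0.48 ± 0.06) and Sdhd (-0.44 ± 0.05) were lower, and the exception was Ndufa1 (0.61 ± 0.06), a subunit of complex I. Of 48 cytosolic ribosomal protein genes, 8 were lower and 1 higher (median -0.07), but 32 were lower without R219S replicate 2 and 31 with total-count scaling. In the main fit the 18.8% called lay below the 49.2% of all tested genes. The list of glycolysis and hypoxia genes gave 10 higher and 6 lower of 29 (median 0.08), or 55.2% called beside 49.2% of all tested genes. The stress gene Ndrg1 (1.33 ± 0.13) and the glucose transporter Slc2a1 (0.55 ± 0.06) were higher. Of 28 cholesterol and fatty acid synthesis genes, 11 were lower and 4 higher (median -0.09), and the 53.6% called were again near that share. Insig1, a sterol sensor (-1.14 ± 0.08), and the elongase Elovl6 (-0.80 ± 0.07) were among the lower ones.

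In signalling pathways the members higher in R219S included ligands, antagonists and receptors. Of 31 tested Wnt pathway genes, 20 were higher and 3 lower (median 0.40). The ligand Wnt10a was at 56.1, 72.5 and 59.4 CPM against 18, 20.8 and 20.8 CPM (1.66 ± 0.10), and the secreted antagonist Sfrp1 (1.29 ± 0.08), the feedback inhibitor Nkd2 (1.55 ± 0.09) and Apcdd1 (1.14 ± 0.07), a Wnt inhibitor, were higher. Wnt5a, a ligand of the non-canonical branch, was lower, at 1.21, 1.36 and 0.8 CPM against 10.4, 11.1 and 13.3 CPM (-3.37 ± 0.18, adjusted p = 1.91e-17). Sfrp2 and Nkd1, relatives of Sfrp1 and Nkd2, were lower too, so the antagonists went both ways. Over the settings that tested them, Sfrp2 differed by -8.61 to -7.85 and Nkd1 by -2.38 to -1.24. The call of Nkd1 was lost without a filter on low counts (adjusted p = 0.0614) and in several fits that left out a library. Of 27 BMP and TGF-beta genes, 21 were higher and 2 lower (median 0.54), with the activin antagonist Fst (2.56 ± 0.10), the activin subunit Inhbb (1.44 ± 0.07), the inhibitor of differentiation Id4 (1.89 ± 0.10) and the receptor Tgfbr1 (0.91 ± 0.05) higher and the ligands Bmp3 (-3.53 ± 0.25) and Tgfb2 (-1.15 ± 0.10) lower. Fst was at 46, 49.4 and 37.7 CPM in R219S and at 7.8, 5.81 and 9.01 CPM in FE255del.

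Of 17 Notch pathway genes, 9 were higher and 4 lower (median 0.26). The ligand Jag1 was at 207, 220 and 163.3 CPM against 63, 54.4 and 65.4 CPM (1.69 ± 0.08, adjusted p = 2.2e-18), and the target Hes1 differed by 0.41 ± 0.04. The target Hey1 (-2.67 ± 0.20), the ligand Dll4 (-3.57 ± 0.36) and Dtx4 (-0.84 ± 0.04), a ubiquitin ligase, were lower. Of 21 EGF family and ERK feedback genes, 11 were higher and 4 lower (median 0.25). The ligand Areg was at 38.3, 35.8 and 35.2 CPM against 7.52, 7.88 and 10.3 CPM (2.09 ± 0.09, adjusted p = 1.88e-19), and the ligand Tgfa (0.95 ± 0.05) and the receptor Egfr (0.87 ± 0.07) were higher, while the ligand Btc (-0.73 ± 0.08) and the inhibitor Errfi1 (-0.71 ± 0.05) were lower. Of 22 AP-1 and immediate early genes, 13 were higher and 2 lower (median 0.34), including Jun (0.84 ± 0.05) and Klf4 (1.34 ± 0.09). The YAP and TEAD targets, 9 higher and 7 lower of 23 (median 0.05), held a wide gap for Nt5e, an ectonucleotidase, at 53.8, 43.8 and 31.8 CPM against 1.91, 2.69 and 2.62 CPM (4.16 ± 0.21), and Ankrd1 was lower (-2.60 ± 0.19). Of 30 p53 response genes, 10 were higher and 10 lower (median 0.08), with the desmosomal apoptosis effector Perp (1.63 ± 0.07) and the cell cycle inhibitor Cdkn1a (0.85 ± 0.05) higher and the kinase Plk2 (-0.96 ± 0.04) and the apoptosis gene Pmaip1 (-1.66 ± 0.11) lower.

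Genes of ion and water transport were lower in 14 of 25 cases and higher in 7 (median -0.79). The sodium pump subunit Atp1b1 was at 161.2, 149.8 and 146.6 CPM against 447.5, 448.2 and 454.6 CPM (-1.56 ± 0.05, adjusted p = 5.6e-23). The epithelial sodium channel subunit Scnn1g was lower (-2.53 ± 0.13), and the potassium channel Kcnj15 was higher, at 93.8, 92.9 and 83.5 CPM against 11.4, 11.5 and 14 CPM (2.88 ± 0.08). Of 10 claudins, proteins of tight junctions, 4 were lower and 2 higher (median -0.36), with Cldn1 higher (2.76 ± 0.12) and Cldn8 lower (-2.55 ± 0.13). Of 21 cytochrome P450 genes, 9 were lower and 5 higher (median -0.21): Cyp2j6 was higher (2.15 ± 0.08) and Cyp4a12a, a male-biased fatty acid hydroxylase, lower (-7.23 ± 0.34). Of 28 glutathione and xenobiotic genes, 11 were higher and 10 lower (median 0.01). Aldh1a1, a retinaldehyde dehydrogenase, was at 30.1, 36.2 and 36.8 CPM against 214.1, 252.3 and 190.1 CPM (-2.67 ± 0.08, adjusted p = 5.04e-22), and the cystine transporter Slc7a11 was higher (1.79 ± 0.12).

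Among transcription factor families, 5 of 20 tested forkhead genes were higher and 9 lower (median -0.12). Besides Foxj1 and Foxa2, Foxc1, a mesoderm and skin factor, was higher (0.97 ± 0.06) and Foxq1 (-0.50 ± 0.05) and the mitotic factor Foxm1 (-0.42 ± 0.07) were lower. Of 27 Hox genes, 8 were higher and 2 lower (median 0.11), and the 37% called lay below the 49.2% of all tested genes. Hoxd13, a factor of the urogenital sinus, was at 174.4, 167 and 171.3 CPM against 107, 105.8 and 116.3 CPM (0.64 ± 0.03, adjusted p = 4.02e-17). Of 10 Sox genes, 5 were higher and 2 lower (median 0.25). Sox21 (0.67 ± 0.04) and Sox9, a progenitor factor (0.42 ± 0.06), were among the higher ones. The lower ones were Sox5, the only Sox gene called with at least a 2-fold difference (-1.485 to -1.297 over all settings), and Sox12 (-0.408 to -0.282).

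Markers of further cell types varied in level. Of 14 tested immune cell genes, 7 were lower in R219S and 1 higher (median -0.84, or -0.71 with silent genes at their bound), or 57.1% called beside 49.2% of all tested genes. The summed level of the list was 146 to 186 CPM in R219S and 253 to 339 CPM in FE255del. The largest part was Cd14, the endotoxin co-receptor, at 174, 150.9 and 138.6 CPM against 231.1, 257.9 and 318 CPM (-0.80 ± 0.09). The defining genes Lyz2 (0 counts in the 6 libraries), Cd3e and Ptprc (at most 0.0558 and 0.112 CPM) were at or near 0. Cd68, a lysosomal protein abundant in macrophages, was at 4.25 to 8.83 CPM in R219S and 6.83 to 7.7 CPM in FE255del. Csf1r, a macrophage receptor, was at 0.0803, 0.144 and 0.0552 CPM against 3.98, 3.89 and 2.62 CPM (-5.22 ± 0.34). Of 6 endothelial genes 3 were higher and 3 lower, and Cdh5 had 0 counts. Of 16 muscle genes 5 were higher and 3 lower (median 0.57), or 50% called beside 49.2% of all tested genes. Their list summed to 457 to 492 CPM in R219S and 250 to 280 CPM in FE255del. The actin-binding genes Tpm2 and Smtn, with mean levels of 216.2 and 150.4 CPM in R219S, made up most of it. Among the others were Tnnt2, a cardiac troponin, at 75.1, 73.5 and 64.6 CPM against 12, 7.19 and 14.5 CPM (2.66 ± 0.17) and the smooth muscle markers Myh11 and Des at no more than 0.391 and 0.0288 CPM. Of 7 tested neuroendocrine genes 0 passed with edgeR or DESeq2, and 1 had an unadjusted p under 0.05 (Sox2, a progenitor factor, 0.14, adjusted p = 0.0853). Without FE255del replicate 3 or R219S replicate 3, 1 gene passed. Syp, synaptophysin, was at most 0.459 CPM.

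The difference between the variants covered fewer genes at day 0 and about as many at day 1. At day 0, 2219 genes differed (12.2%; 1326 higher and 893 lower), and at day 1 it was 9537 (52.5%; 4867 higher and 4670 lower). Of the 8940 genes called at day 11, 1347 (15.1%) had been called at day 0 in the same direction, 311 (3.48%) in the opposite one, and 7282 (81.5%) had not been called. Tested directly, as the day 11 difference minus the day 0 difference, 6497 genes changed (35.7%), 928 of them by at least 2-fold upward (5.11%) and 731 downward (4.02%), together 9.13%. Of the 8940 the change held for 5936 (66.4%). A gene with no counts in a group at day 0 can have no usable value in that test: Igf1 had 0 counts at day 0 in both variants and an adjusted p of 1.

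Some of these genes passed at day 0 already. Krt14 differed by 0.62 at day 0 (adjusted p = 3.43e-08), then by 2.23 at day 1 and 1.58 at day 11, a change since day 0 of 0.96 (adjusted p = 3.61e-10). Krt5 differed by 0.37, 1.90 and 1.14 on the 3 days. Spdef was lower in R219S from day 0 on, by -3.04, -8.74 and -6.05, and Upk3a by -2.06, -11.05 and -12.12. Upk1b showed no difference at day 0 (0.00, adjusted p = 1), and its differences at days 1 and 11 were -4.12 and -5.76. Vim differed by 0.46 at day 0 (adjusted p = 0.0948), 1.86 at day 1 and 5.86 at day 11. Postn did not pass at day 0 (0.61, adjusted p = 0.297) or day 1 (0.46, adjusted p = 0.567). Igf1 was at 68.8, 73.7 and 69 CPM in R219S at day 1, each above the highest R219S library of day 11. Of named genes that averaged 2 CPM or more in the 12 libraries of days 0 and 11, differed at day 11 in the same direction and did not overlap there, the largest changes since day 0 upward were those of Tmem45a2 (11.65), the secretory protein Agr3 (11.37), Col14a1 (8.04), Adcy8 (7.69), the hair keratin Krt36 (6.71) and Atp13a5 (6.61). Downward they were those of Adcyap1r1 (-10.79), Upk3a (-10.06), Dcdc2a (-8.88), Mme (-8.39), Sytl2 (-7.42) and Clca1 (-6.47). The changes of Adcyap1r1 and Sytl2 were lost without R219S day 0 replicate 2 (adjusted p = 1 and 0.98).

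The gene lists took different courses over the days. For the interferon list 0 genes were higher and 3 lower at day 0, 8 higher and 16 lower at day 1 (median -0.30) and 34 higher and 2 lower at day 11. The 57.1% of this list called at day 1 were near the 52.5% of all tested genes. The G2 and M genes were higher in R219S at day 1, 28 of 45 with 0 lower (median 0.22, beside 26.8% of all genes higher), and lower at day 11. DNA replication genes went from 23 higher and 1 lower of 40 at day 1 to 0 higher and 36 lower. Ribosomal protein genes were lower in 45 of 48 cases at day 1 (median -0.32) and in 8 at day 11. Basal genes were higher in 6 and lower in 4 at day 0 (7.3% and 4.91% of all genes), in 21 and 2 at day 1, and in 21 and 3 at day 11. Squamous genes were higher in 15 of 30 and lower in 1 at day 0 already (median 0.52), in 20 and 6 at day 1, and in 22 and 2 at day 11. The mesenchymal list of 20 had 2 higher and 1 lower at day 0, 9 and 4 at day 1 (median 0.46), and 15 and 1 at day 11. The share called was 15%, 65% and 80%, beside 12.2%, 52.5% and 49.2% of all tested genes. Counted by the change since day 0 itself, 29 interferon genes changed upward and 1 downward, 45 of 45 G2 and M genes downward, and 14 mesenchymal genes upward and 0 downward, beside 17.3% upward and 18.4% downward over all genes.

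**Figure D4:**
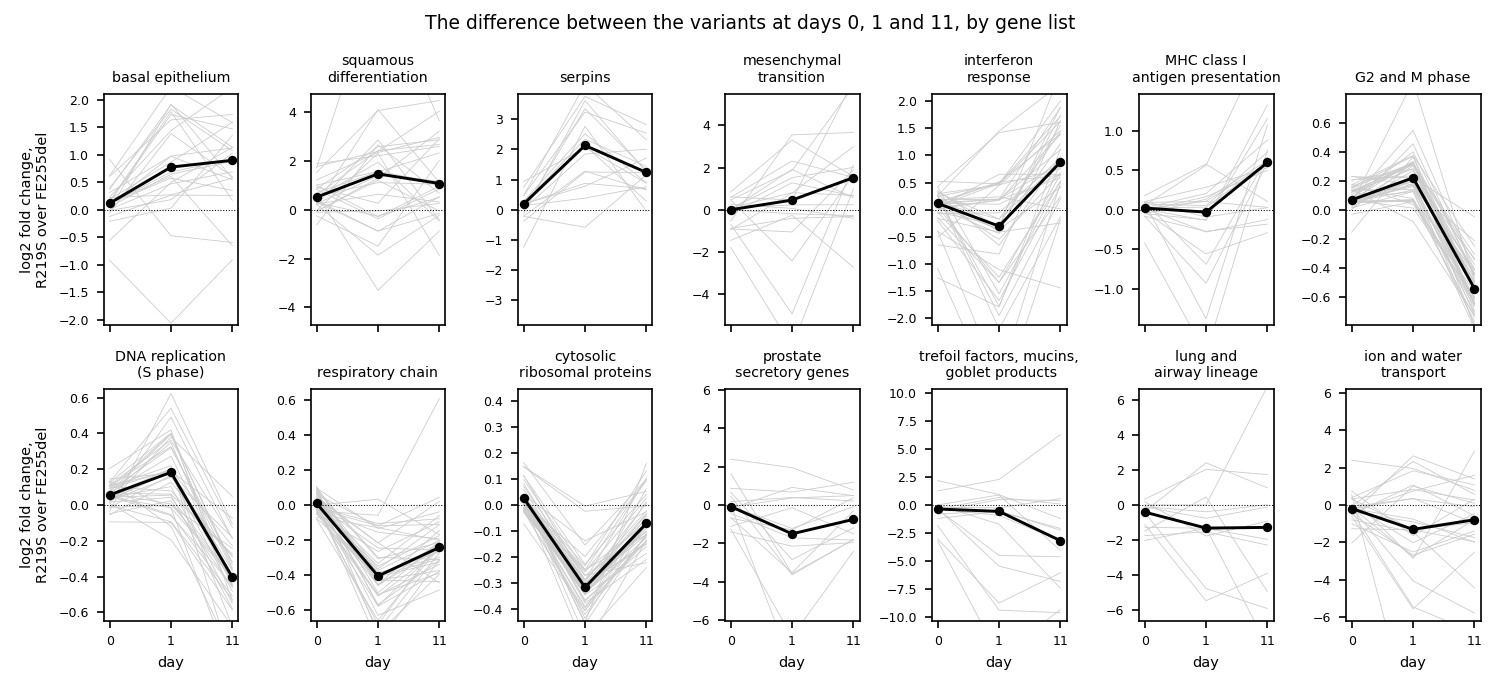
Each panel is 1 gene list, with the day on the x axis and the log2 fold change of R219S over FE255del on the y axis. Grey lines are single genes, black points and lines are medians, and each axis covers 95% of the values, so lines of genes beyond it run out of the panel. The interferon median went from 0.12 at day 0 to -0.30 and 0.88, and that of the G2 and M phase from 0.07 to 0.22 and -0.54.

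Each variant was also set beside EV at day 11. The comparisons share the EV libraries, so their values are given side by side and no relation between them is drawn. R219S differed from EV in 5833 genes (32.1%; 17.7% higher and 14.4% lower) and FE255del in 7672 (42.2%; 22.6% higher and 19.6% lower). For squamous genes R219S had 8 higher and 8 lower of 30 (median -0.17), and FE255del had 3 higher and 23 lower (median -1.50). Interferon genes gave 4 higher and 6 lower of 42 in R219S (median -0.13) and 2 higher and 35 lower in FE255del (median -1.15). The G2 and M genes gave 0 higher and 22 lower of 45 in R219S (median -0.18) and 44 higher and 1 lower in FE255del (median 0.32). Respiratory chain genes gave 1 higher and 6 lower of 42 in R219S and 30 higher and 0 lower in FE255del. Goblet genes gave 3 higher and 4 lower of 15 in R219S (median 0) and 12 higher and 0 lower in FE255del (median 3.10, or 2.42 with silent genes at their bound). For the mesenchymal list the counts were 8 higher and 1 lower of 20 in R219S (median 0.42) and 4 higher and 11 lower in FE255del (median -0.62). For ion and water transport they were 5 higher and 14 lower of 25 in R219S (median -0.79) and 9 higher and 11 lower in FE255del (median 0.25).

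**Figure D5:**
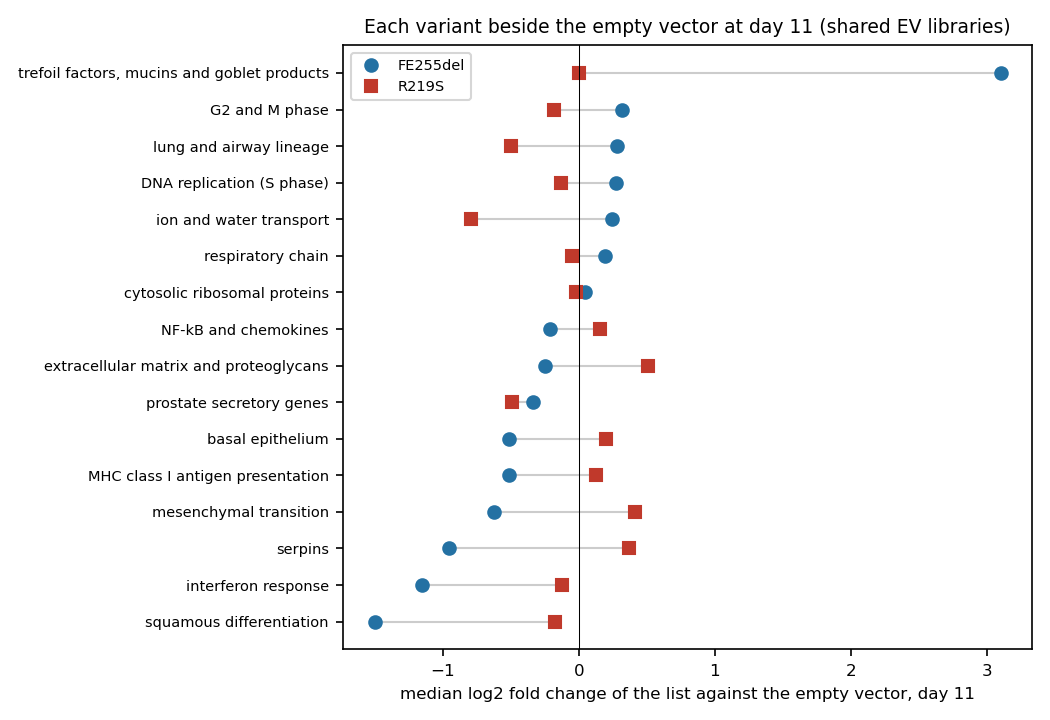
For 16 gene lists, the median log2 fold change against the EV libraries of day 11 is shown on the x axis, as blue circles for FE255del and red squares for R219S, with a grey line joining them. The goblet list lies at 3.10 for FE255del (2.42 with silent genes at their bound) and 0 for R219S, and the squamous list at -1.50 and -0.17.

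Values of single genes against EV at day 11 are likewise given side by side. Neither variant was tested against EV at day 0. Vim was 4.63 above EV in R219S and -1.23 from it in FE255del, and Col14a1 was 8.65 above EV in R219S (adjusted p = 1.46e-23) and -1.33 from it in FE255del (adjusted p = 0.0769). Krt5 differed from EV by 0.11 in R219S (adjusted p = 0.122) and by -1.02 in FE255del (adjusted p = 4.42e-17). Krt14 differed from EV by 0.21 in R219S (adjusted p = 0.012) and by -1.37 in FE255del (adjusted p = 7.02e-18). Upk1b differed by -0.02 in R219S (adjusted p = 0.966) and by 5.74 in FE255del. Mki67 was lower than EV in R219S (-0.30, adjusted p = 0.0051) and higher in FE255del (0.41, adjusted p = 0.000131). Tmprss2 likewise was lower in R219S (-0.73) and higher in FE255del (0.39), and Isg15 differed from EV by -0.03 in R219S (adjusted p = 0.95) and by -2.03 in FE255del (adjusted p = 1.34e-07).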

How the data were processed

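Polyadenylated RNA was sequenced with a stranded kit, per the labels' protocols. The authors deposited 1 table of expected counts per library over 45232 genes, raw and not normalized. STAR 2.4.2a, featureCounts 1.4.3 and mm10 are named per the submitters' processing notes, and the annotation release and strand setting are not given in the sources used here. Of the deposited counts 298311 were not written as whole numbers (at most 3e-09 off) and were rounded. Low counts were mostly even (69.7% of values from 1 to 20, 50.3% above 1000), as when both reads of a pair are counted, so counting intervals are too narrow. Symbols matched 44585 identifiers.

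Genes were kept by filterByExpr in edgeR 4.0.16 (R 4.3.3), scaled by TMM and fitted with 12 group means over all 36 libraries, which share 1 estimate of the spread (robust quasi-likelihood, 24 residual degrees of freedom). Tests were two-sided with a threshold of 0.05 over all 18176 genes. The SE is the fitted fold change divided by the root of F, and levels are TMM-scaled CPM. On simulated data with 17935 genes, 42%, 62%, 71.4% and 98% of genes changed 1.25-, 1.5-, 2- and 4-fold were recovered, with 4 false calls. Only 49 or 50 tested genes were changed at each fold, far fewer than the 49.2% called here. Each gene's spread was drawn from the trend over level alone, so these rates need not hold for the real libraries.

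The compared groups, the 41 lists (1057 symbols) and the rules were chosen with earlier results of these data known. Named genes were a panel of lineage genes, the 12 largest called differences each way at day 11 and the 6 largest changes each way (mean of at least 2 CPM, no overlap of the compared libraries, no predicted names), and up to 4 called members with the smallest p per list and direction; other list members are named to give a receptor, ligand or lineage marker, after their values were seen. Alternatives were RLE and total-count scaling, other filters, only the compared groups, DESeq2 1.42.0, a replicate term, a test against 1.5-fold (glmTreat) and leaving out each library. Replicate numbers are not stated to mark a shared batch, so the main fit holds no pairing. Whether a number marks 1 culture across days was not tested. Some genes and a sequence are not reported here.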

Additional observations from a re-analysis of the deposited data

Results flagged for a closer look

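The difference between the variants at day 11 departed from that at day 0, by a test of the departure itself, for 6497 genes. Among lineage and panel genes this was an increase of the R219S level relative to FE255del, on the log2 scale, of 5.39 for Vim, 1.48 for Isg15, 1.27 for Fkbp5, 0.96 for Krt14, 0.77 for Krt5, 0.66 for Trp63 and 0.45 for Cd24a. The departure was downward for Upk1b (-5.76), Tmprss2 (-1.14), Mki67 (-0.72), Krt18 (-0.42) and Krt8 (-0.41). Of the genes that averaged 2 CPM or more in the 12 libraries of both days and did not overlap at day 11, the largest upward departures were those of Tmem45a2 (11.65), Agr3 (11.37), Col14a1 (8.04), Adcy8 (7.69), Krt36 (6.71) and Atp13a5 (6.61), and the largest downward ones those of Adcyap1r1 (-10.79), Upk3a (-10.06), Dcdc2a (-8.88), Mme (-8.39), Sytl2 (-7.42) and Clca1 (-6.47). Where a gene had few counts at day 0, the size of its departure depends on them: the calls of Adcyap1r1 and Sytl2 were lost without R219S day 0 replicate 2.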

How the results depend on the processing

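No called gene changed direction under any setting tried, among 286 named genes followed at day 11 and 12 followed for the change since day 0. Genes named outside the naming rules, such as Fn1 and Zeb2, were not followed over the settings. For 286 named genes at day 11, 3788 values over all settings kept their side of the threshold, 149 lost it (92 of them in the test against 1.5-fold) and 14 gained it. Against 1.5-fold the counts of called genes fell to 2601 at day 11, 146 at day 0, 3368 at day 1, 1502 for the change since day 0, 1187 for R219S against EV and 1890 for FE255del against EV, since the test asks for more. With only the compared groups fitted, R219S against EV gave 3817 genes, with fewer samples behind the spread, and day 11 gave 6899. Leaving out 1 library gave 8283 to 8652 genes at day 11, 8847 to 9052 at day 1, 5972 to 6405 for the change, 4974 to 5761 for R219S against EV, 6737 to 7429 for FE255del against EV, and 623 to 653 list genes called at day 11. At day 0 the range was 1470 to 1756, lowest without FE255del replicate 1. Total-count scaling moved the share of higher calls from 49.7% to 39.3% at day 11, from 59.8% to 47.1% at day 0 and from 55.2% to 42.6% for R219S against EV. DESeq2 called 9070 genes at day 11. With the replicate number as a block 9049 genes were called at day 11. Deviations of same-numbered libraries correlated at 0.25, 0.384 and -0.45, so not every library correlated best with its own number, and the numbers were not taken as pairs. Of the list medians under other settings, 383 moved by less than the replicate spread and 150 by more, and those of the androgen (-0.23 to 0.18), cholesterol (-0.17 to 0.02), glutathione (-0.11 to 0.11), YAP (-0.03 to 0.08) and endothelial (-0.14 to 2.21) lists lay on both sides of 0. The stricter filter left 2 stroma genes tested, both higher, and 10 of 12 mesenchymal genes higher, since fewer genes were tested. Each variant is 1 sorted population, and low genes rest on few counts.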
